A study of Mus musculus with 4 samples.

Results

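10 genes, most of them of surfactant storage or fatty acid metabolism, were followed in sorted mouse alveolar epithelial cells. The deposited files list 14561 genes, and all 10 are listed in each of the 4 libraries. They are Abca3, Lamp3 and Lpcat1, which belong to the lamellar body and surfactant lipid handling, and Slc34a2, which encodes a phosphate transporter. The others are Scd1, Scd2, Fasn, Fabp5, Acot1 and Lpin2, which make, desaturate, bind or use fatty acids. They were chosen by name for these roles and not by a threshold on a value. Alveolar type I (AT1) cells, the flat cells of the gas exchange surface, were collected on postnatal days 3, 15 and 60 (P3, P15 and P60) by sorting for the red reporter and surface Pdpn and against the green reporter and CD45. Alveolar type II (AT2) cells, the cuboidal cells that secrete surfactant, were sorted at P60 as green cells without CD45. All mice were of mixed FVB/C57BL6 background, carried Sftpc-CreER, Rosa26-Zsgreen and Hopx-RFP, and had been given tamoxifen, so the green label marks cells in which a Cre driven by the Sftpc promoter had recombined the reporter, and their descendants. The lungs were digested with neutral protease and DNase I, to which elastase and type I collagenase were added for AT1 cells only. Each of the 4 groups is 1 library, so the cell type at P60 cannot be told apart from the library and the digestion, and age cannot be told apart from the library. The sources used here do not give the number of animals behind a library.

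The lamellar body is the storage organelle of the AT2 cell, a lysosome-related compartment in which phospholipid is packed as tight membranes together with the hydrophobic surfactant proteins before it is secreted. Its main lipid is a phosphatidylcholine with saturated acyl chains, made from fatty acids that the cell synthesises from acetyl units or takes up from blood. Stearoyl-CoA desaturases place a double bond in saturated acyl-CoA and so supply monounsaturated chains. The mouse has several such enzymes, and Scd1 and Scd2 encode a pair of them with similar function and different tissue patterns.

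Levels are given as UMIs (unique molecular identifiers, each counting 1 captured transcript end) of a gene per 1000000 UMIs of all genes in the cells counted (CPM). The cells counted were those of clusters that carry the markers of the sorted type, less cells with several markers of another type. These were 2865 of 3149 cells at P3, 2639 of 2940 at P15, 1186 of 1337 in the P60 AT1 library and 2059 of 2093 in the AT2 library, with 22873819, 13675837, 6489452 and 10253367 UMIs and medians of 7294, 4928, 5368.5 and 4879 UMIs per cell. The 24 AT1 markers summed to 42787, 73183 and 65324 CPM in the AT1 cells and to 3494 CPM in the AT2 cells, and the 19 AT2 markers to 2166, 1432 and 608 CPM against 250409 CPM. The libraries shared 3 to 15 cell barcodes by pairs. Ranges in parentheses are exact 95% intervals of the counting error alone, no difference has a replicate check, and no test was made. Some clusters among the cells counted had markers of another class among their leading genes, so ranges over the clusters are given by cluster beside the levels of the libraries. They are AT2 cluster 2 (626 cells, with the AT1 markers Hopx, Pdpn and Igfbp2), AT2 cluster 3 (267 cells, Acta2), P3 cluster 6 (363 cells, Gpm6a) and P15 cluster 7 (469 cells, Sftpd), and P60 AT1 cluster 2 (112 cells) was led by platelet genes such as Ppbp and Pf4. Without the first 4, and separately without the platelet-led one, no ratio of the 10 genes that was 2-fold or more fell below 2-fold.

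On the GRCm38 (mm10) assembly with the GENCODE vM21 annotation, the desaturase genes lie side by side on chromosome 19. Scd2 runs on the plus strand from 44293674 to 44306864 and Scd1 on the minus strand from 44394455 to 44407879, with Scd4 between them. Abca3 lies on chromosome 17 from 24351950 to 24410201 and Lpin2 on the same chromosome from 71182560 to 71249817, Lpcat1 on chromosome 13 from 73467197 to 73516422, Slc34a2 on chromosome 5 from 53038081 to 53071664, Fabp5 on chromosome 3 from 10012548 to 10016607 and Acot1 on chromosome 12 from 84009490 to 84018371, and these 6 genes are read from the plus strand. Lamp3 on chromosome 16 from 19653378 to 19706375 and Fasn on chromosome 11 from 120805846 to 120824547 lie on the minus strand. The 3' chemistry reads transcript ends, and the last 500 bases of the transcripts of Scd1, Scd2 and Acot1 shared no stretch of 50 bases with another gene, so UMIs of these near relatives can be told apart by sequence. For Lamp3, 7.54% of such stretches occur elsewhere.

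Upstream sequence is shown for a pair of genes that were high in AT2 cells and low in AT1 cells, a phosphate transporter and the fatty acid synthase, from RefSeq on GRCm38.p6. Each run is the 250 bases before the start given by RefSeq, written 5′ to 3′ on the gene's own strand, at chr5:53049103-53049352 (plus strand) and chr11:120824548-120824797 (minus strand). Capitals mark matches to the palindrome TTGCGCAA, known as a binding sequence of C/EBP factors, in the first, and to CCAAT or its reverse complement, known as a binding sequence of NF-Y, in the second. The Slc34a2 window lies inside the gene span given above, so its RefSeq start is downstream of the GENCODE start. In part it overlaps Gm17182 on the opposite strand (53047687 to 53049188).
Slc34a2: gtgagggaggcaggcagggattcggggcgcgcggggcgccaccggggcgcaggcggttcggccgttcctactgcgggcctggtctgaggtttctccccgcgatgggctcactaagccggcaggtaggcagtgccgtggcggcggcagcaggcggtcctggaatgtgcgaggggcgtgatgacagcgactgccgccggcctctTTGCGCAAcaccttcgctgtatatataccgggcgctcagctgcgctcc
Fasn: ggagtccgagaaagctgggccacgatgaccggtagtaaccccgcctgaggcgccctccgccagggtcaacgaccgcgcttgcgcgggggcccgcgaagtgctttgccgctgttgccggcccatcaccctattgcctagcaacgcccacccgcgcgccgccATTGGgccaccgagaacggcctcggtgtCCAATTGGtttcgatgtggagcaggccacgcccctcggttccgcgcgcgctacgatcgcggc
Both strands were searched. TTGCGCAA occurs once in the Slc34a2 window, starting 48 bases before the start site, and in 0.183% of 32851 RefSeq promoter windows of 300 bases, and in none of the windows of Abca3, Lamp3, Lpcat1, Fasn, Acot1 and Lpin2. CCAAT occurs 3 times in the Fasn window, 90, 62 and 59 bases before the start, where the last pair overlap as CCAATTGG, and at least once in 37.4% of all windows, those of Acot1 and Lpin2 among them. Also searched were CACCCCA, held by 7.62% of all windows and by that of Abca3, and CACGTG, held by 7.15% and by Lpin2. GGGCGG was held by 35.7% and by Abca3, Lpcat1, Acot1 and Lpin2. GGGGCGGGG, which contains GGGCGG, was held by 11.4% and by Lpin2. TATAAA, held by 13.6%, CACTCAAG, held by 1.43%, and TGACCTCA, held by 2.17%, were in none of the windows of these genes. A match in a window says nothing of whether a factor binds there. Cebpa, which encodes a C/EBP factor, was counted at 1.75, 1.17 and 0.308 CPM in AT1 cells at the 3 ages and at 327 CPM in AT2 cells. Cebpb, which encodes another C/EBP factor, had the opposite order at P60, with 6.99, 23.1 and 216 CPM in AT1 cells and 96.1 CPM in AT2 cells.

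At P60 the AT2 cells held far more of 8 of the 10 transcripts than the AT1 cells, and less of Scd2 and Lpin2. All 10 genes passed the filter on low counts (50 CPM and 30 UMIs in the higher library), 8 were at least 2-fold higher in AT2 cells and 2 at least 2-fold lower. Lamp3, Slc34a2, Scd1, Fasn, Fabp5 and Acot1 were under 50 CPM in AT1 cells. They passed only through AT2 cells and had to be higher there. Of 3452 genes tested in the same way, 13.5% were at least 2-fold higher in AT2 cells and 39.5% at least 2-fold lower, 53% in either direction, with a median log2 ratio of -0.72. In counts these were 466 higher and 1365 lower, and 862 and 649 when the libraries were scaled by the median of gene ratios, which moved that median, and with it the ratio of each gene in AT2 over AT1 cells, by 0.69. The AT2 cells spent 13.6% of their UMIs on Sftpc and 14.5% on ribosomal protein genes, against 0.0221% and 4.77% in the AT1 cells, while the nuclear RNA Malat1 took 4.20 and 16.0%. The 10 genes together took 0.0955, 0.248 and 0.258% of the UMIs of AT1 cells (P3, P15, P60) and 1.60% in AT2 cells.

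**Figure D1:**
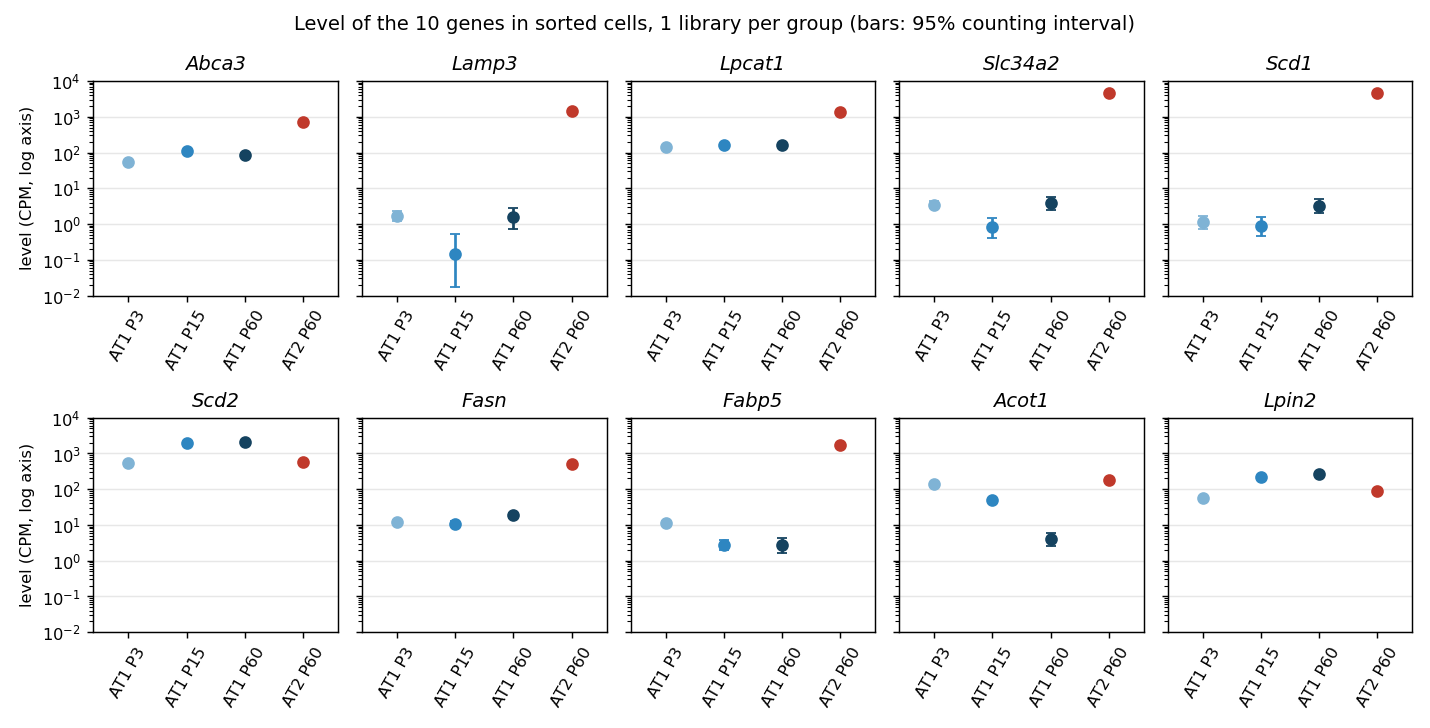
Each panel plots 1 gene, with its level in CPM on a log axis for the AT1 libraries by age and the AT2 library, 1 each, and bars for the 95% counting interval. Scd2 and Lpin2 have their lowest level at P3, Acot1 drops over the AT1 ages, and every gene but Scd2 and Lpin2 stands highest in AT2 cells.

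Slc34a2 and the lamellar body gene Lamp3 stood in AT1 cells at or near the level of other AT2 markers. Abca3 and Lpcat1 were also counted in AT1 cells of every age. Slc34a2 encodes the sodium-phosphate cotransporter of the apical AT2 membrane. It read 3.50, 0.804 and 3.85 CPM in AT1 cells by age and 4643 CPM in AT2 cells, 1205-fold higher (816 to 1862) in AT2 than in AT1 cells at P60. It was the gene of rank 20 by UMIs in AT2 cells. Lamp3, a lysosome-associated membrane protein of the lamellar body, read 1.71, 0.146 and 1.54 CPM in AT1 cells, from 39, 2 and 10 UMIs, and 1444 CPM in AT2 cells, 937-fold higher (509 to 1955). These folds rest on few AT1 UMIs and move with the cells counted. Over the alternatives the log2 ratio of Slc34a2 lay between 6.72 and 11.15 and that of Lamp3 between 6.43 and 11.62, the lowest with all cells of the libraries counted, AT2-like ones in the AT1 gate included. In both, every cluster of AT2 cells stood above every cluster of AT1 cells, with Slc34a2 between 3550 and 5586 CPM over 5 AT2 clusters and Lamp3 between 1132 and 1845 CPM.

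Abca3, the ATP-driven transporter that carries phospholipid into the lamellar body, read 55.9 CPM at P3, 107 at P15 and 87.4 at P60 in AT1 cells and 704 CPM in AT2 cells. The difference at P60 was 8.05-fold (7.39 to 8.79), a small one beside those of Slc34a2 and Lamp3. Lpcat1, the acyltransferase that remakes saturated phosphatidylcholine from its lyso form, read 145, 164 and 166 CPM in AT1 cells and 1332 CPM in AT2 cells, 8.02-fold higher (7.53 to 8.54). Both genes were thus counted in AT1 cells at P60 at about 12% of their AT2 level, 12.4% for Abca3 (11.4 to 13.5) and 12.5% for Lpcat1 (11.7 to 13.3). Sftpc in the same AT1 cells stood at 0.163% of its AT2 level, and the 19 AT2 markers at a median of 0.218%, between 0.0596 and 14.6%, with Ctsh the highest. At P3, Abca3 and Lpcat1 stood at 7.94 and 10.9% of the P60 AT2 level, below the markers Lgi3 (13.1%) and Ctsh (143%). The median of the markers was then 0.236%.

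Abca3 and Lpcat1 were also read in AT1 cells split by how many AT2 markers they held, a split that follows depth, with medians of 3076, 5249 and 6850 UMIs per cell at P60. At P60, the 386 AT1 cells with UMIs of at most 1 AT2 marker read 89.2 CPM of Abca3 (74.2 to 106), the 313 cells with 2 such markers 85.8 CPM (72.3 to 101) and the 487 cells with 3 or more 87.4 CPM (77.8 to 97.8). These intervals overlap. For Lpcat1 the levels were 152, 176 and 167 CPM, and at P15 Abca3 read 113, 110 and 98.4 CPM in the same 3 sets of cells. In the P15 library a UMI of Abca3 was found in 39.9% of AT1 cells at a median of 4928 UMIs per cell, at 107 CPM, while the 110 cells of a cluster with fibroblast and pericyte markers, at a median of 4752.5 UMIs, read 21.0 CPM (10.9 to 36.7). Other clusters of that library came closer to the AT1 level, the immune-like one at 81.2 CPM (49.6 to 125) and the endothelial-like one at 54.4 CPM from 12 UMIs. At P3 the club and ciliated-like cluster read 105 CPM (91.1 to 121), above the 55.9 CPM (52.9 to 59.0) of the AT1 cells of its library. In AT2 cells a UMI of Abca3 was found in 94.3% of cells.

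By contrast, what AT1 cells held of Scd1, Slc34a2, Lamp3 and Fabp5 at P60 was 0.0678, 0.0830, 0.107 and 0.160% of the AT2 level, no more than the 0.163% of Sftpc. These percents lie within the range of the AT2 markers in the same cells. Whether such UMIs come from the AT1 cells or from RNA of other cells was not tested, and differences between ages within AT1 cells are not read for these 4 genes. Fasn at 3.57% (2.96 to 4.27) and Acot1 at 2.26% (1.47 to 3.32) stood above 18 and 17 of the 19 markers.

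**Figure D2:**
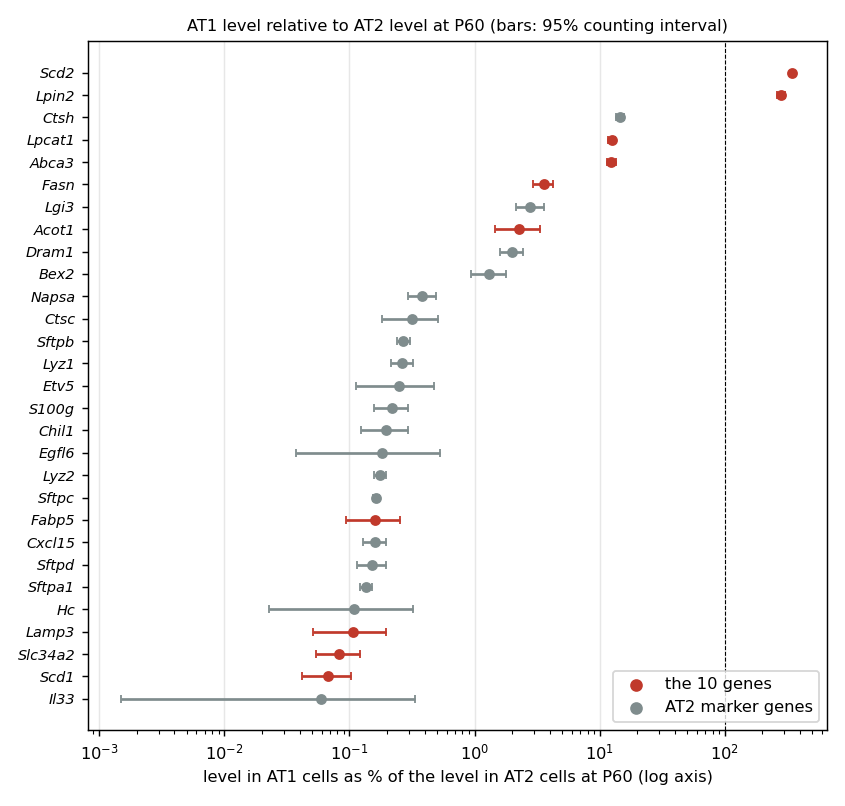
The level of each gene in AT1 cells at P60 is plotted as a percent of its level in AT2 cells at P60 on a log axis, with 95% counting intervals, for the 10 genes (red) and the 19 AT2 markers (grey), and a dashed line at equal levels. Scd1, Slc34a2, Lamp3 and Fabp5 sit among the markers near 0.1%, Abca3 and Lpcat1 near 12%, and Scd2 and Lpin2 to the right of the line at 345 and 281%.

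The pair of desaturase genes divided between the cell types. Scd1 read 1.14, 0.877 and 3.24 CPM in AT1 cells at P3, P15 and P60, from 26, 12 and 21 UMIs, and 4776 CPM in AT2 cells, where it ranked 19 by UMIs. Scd2 read 526, 1921 and 2037 CPM in AT1 cells and 590 CPM in AT2 cells, where it ranked 195, against 34 in AT1 cells at P60. Scd1 was 1476-fold higher (965 to 2385) in AT2 than in AT1 cells at P60 and Scd2 3.45-fold lower (3.35 to 3.56). Over the alternatives the log2 ratio of Scd1 lay between 7.40, with all cells of the libraries counted, and 11.69, and that of Scd2 between -1.98 and -1.10.

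The ratio of Scd1 to Scd2 UMIs does not depend on how libraries are scaled. It was 8.10 (7.89 to 8.32) in AT2 cells, from 48971 and 6046 UMIs, and 0.00159 (0.000983 to 0.00243) in AT1 cells at P60, from 21 and 13220. At P3 and P15 it was 0.00216 and 0.000457. In the 5 AT2 clusters it lay between 6.19 and 9.65, and in the 17 AT1 clusters of the 3 ages it was at most 0.00403, so that no cluster of either sorted type overlapped the other. Scd2 UMIs thus outnumbered Scd1 UMIs in AT1 cells at each of the 3 ages and the order was the reverse in AT2 cells, which were sequenced at P60 only. UMIs count transcript ends and were not divided by length.

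**Figure D3:**
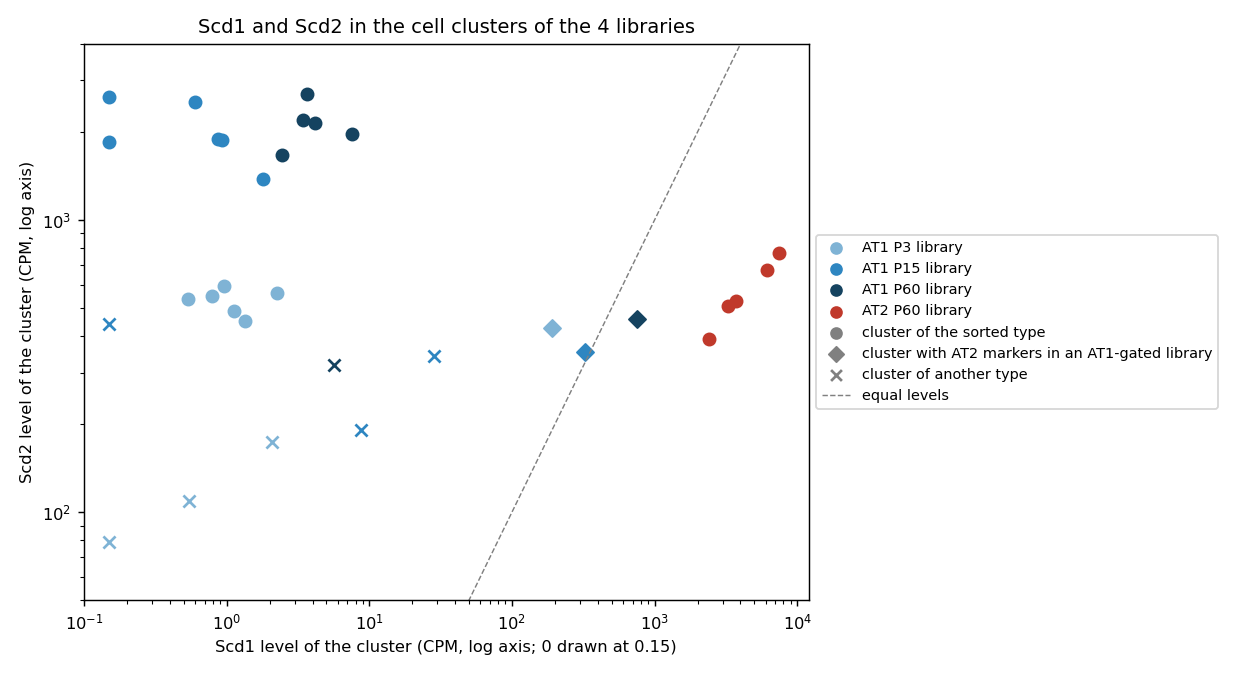
Each point is 1 cell cluster, with its Scd1 level (x) and Scd2 level (y) in CPM on log axes, coloured by library and shaped by whether it carries the sorted type, AT2 markers in an AT1-gated library, or another type. AT1 clusters lie at the left, with Scd2 higher at P15 and P60 than at P3, and the 5 AT2 clusters at the right, below the line of equal levels.

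Single cells showed the same division. Each cell was thinned at random to 2000 UMIs and shallower cells were left out, which left 2865, 2429, 1065 and 1986 cells. Scd2 without Scd1 was found in 61.1% of AT1 cells at P3, 94.8% at P15 and 95.3% at P60 (93.9 to 96.5), and in 0.655% of AT2 cells. Both were found in 66.8% of AT2 cells (64.7 to 68.9) and Scd1 alone in 31.9%, so most AT2 cells carried both transcripts, and 1887 of the 1986 had more UMIs of Scd1 than of Scd2, 32 the reverse. No AT1 cell of 1065 at P60 had more Scd1 than Scd2, which allows a share of up to 0.282% by the limit of 3 counts and up to 0.346% by the exact interval. Before thinning, a UMI of Scd2 was found in 94.0, 98.2 and 98.3% of AT1 cells and 90.2% of AT2 cells, and of Scd1 in 0.663, 0.455 and 1.77% of AT1 cells and 99.7% of AT2 cells.

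**Figure D4:**
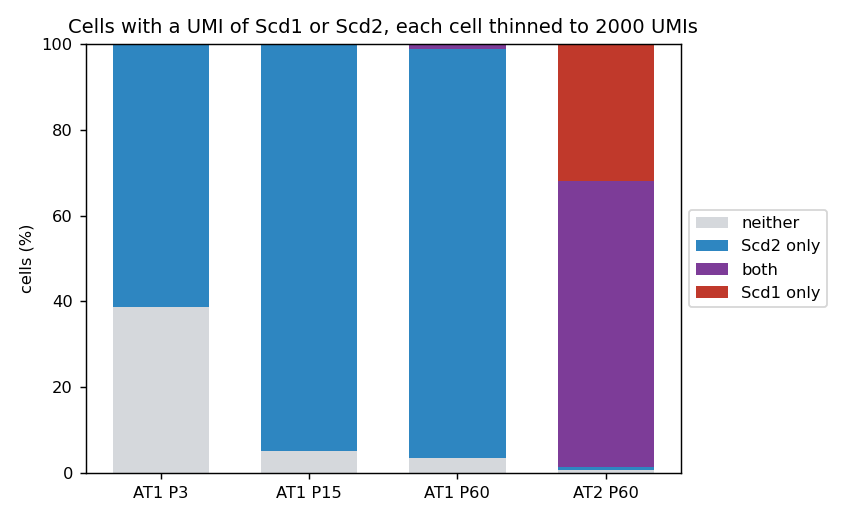
Stacked bars give the percent of cells of each library, after thinning each cell to 2000 UMIs, with no UMI of either gene, Scd2 only, both, or Scd1 only. Nearly all AT1 cells with a UMI had Scd2 only, 61.1% of cells at P3 and 95.3% at P60, while 66.8% of AT2 cells had both.

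The other fatty acid genes also differed between the cell types at P60. Fasn, the fatty acid synthase, read 11.8, 10.7 and 18.6 CPM in AT1 cells and 522 CPM in AT2 cells, 28.0-fold higher (23.4 to 33.8). Fabp5, a cytosolic carrier of fatty acids, read 11.4, 2.78 and 2.77 CPM and 1737 CPM, 626-fold higher (396 to 1057), with a log2 ratio between 6.30 (all cells counted) and 10.81 over the alternatives. Acot1, a cytosolic thioesterase that splits acyl-CoA into fatty acid and CoA, read 4.01 CPM in AT1 cells at P60 and 178 CPM in AT2 cells, 44.3-fold higher (30.1 to 68.0), a log2 ratio of 5.47 that lay between 5.00 and 6.38 over the alternatives. Lpin2, a phosphatidate phosphatase that makes diacylglycerol, was the one besides Scd2 with less in AT2 cells, 91.9 CPM against 258 in AT1 cells, 2.81-fold lower (2.60 to 3.05). With the libraries scaled by the median of gene ratios its log2 ratio was -0.80 in place of -1.49, under 2-fold, while that of Scd2 was -1.10.

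AT2 cells were not uniform in these genes. Scd1 spanned the widest range of the 10 over the 5 AT2 clusters, 3.08-fold from 2421 CPM in cluster 3 to 7450 CPM in cluster 0. Scd2 ran from 391 to 772 CPM, Fasn from 372 to 712 and Lamp3 from 1132 to 1845, each also lowest in cluster 3 and highest in cluster 0. Abca3 had another order, highest at 1109 CPM in cluster 4 (91 cells, led by Mki67, Malat1 and Jun among others, at a median of 2231 UMIs), where Lpin2 was also highest at 170 CPM and Acot1 lowest at 96.2 CPM. Cluster 0 (430 cells) was led by Fgg, Mfsd2a and Lrg1 and cluster 3 by S100a6, Acta2 and Lgals3. The 10 genes were kept out of the genes used for clustering, but genes that vary with them were not, so these ranges are a description.

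Over the AT1 ages, Scd2 and Lpin2 were higher and Acot1 lower at P60 than at P3. In P15 over P3, 5 of the 10 genes passed the filter, 2 were at least 2-fold higher and 1 at least 2-fold lower, where 9.3% and 6.66% of 3290 genes tested were (16% either way). In P60 over P15, 5 passed, 0 were higher and 1 was lower, against 3.97% and 4.4% of 3430 genes (8.37% either way). In P60 over P3, 5 passed, 2 were higher and 1 lower, against 13.3% and 9.59% of 3462 genes (22.9% either way). The genes that passed were Abca3, Lpcat1, Scd2, Acot1 and Lpin2, and the median log2 ratio of all genes tested was 0.13, -0.04 and 0.12. These comparisons share libraries. Acot1 was under the filter at P60, so in P60 over P15 and P60 over P3 it passed only through the younger library. Ribosomal protein genes took 20.3, 7.31 and 4.77% of UMIs at P3, P15 and P60 and Malat1 4.27, 6.68 and 16.0%, and their part in the ratios is covered by the alternative totals, under which all of these calls of the 10 genes held.

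Scd2 was 3.65-fold higher (3.57 to 3.73) at P15 than at P3 and only 1.06-fold higher (1.04 to 1.08) at P60 than at P15. The 6 clusters of P3 lay between 452 and 595 CPM, the 6 of P15 between 1383 and 2634 and the 5 of P60 between 1668 and 2700, so the P3 clusters did not overlap the others and those of P15 and P60 did. Lpin2 moved alike, from 58.2 CPM at P3 to 221 at P15 and 258 at P60, 3.80-fold (3.56 to 4.06) and then 1.17-fold (1.10 to 1.24) higher. Its clusters lay between 48.3 and 68.5 CPM at P3, 135 and 305 at P15 and 173 and 279 at P60.

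Acot1 went the other way and in 2 steps. It read 140 CPM at P3, 50.8 at P15 and 4.01 at P60, 2.76-fold lower (2.54 to 3.00) and then 12.7-fold lower (8.58 to 19.6), 35.0-fold lower over the whole span (23.9 to 53.7). Over the alternatives the log2 ratio of the whole span lay between -6.04 and -4.91. Clusters of the 3 ages did not overlap, with 104 to 198 CPM at P3, 15.0 to 94.8 at P15 and 0 to 7.51 at P60. The other cells of the same libraries read 319, 181 and 17.8 CPM of Acot1, the last from 14 UMIs. Their mix of types differs between libraries, so this pool cannot tell whether the fall was particular to AT1 cells. By cluster, club and ciliated-like and AT2-like cells read 340 and 447 CPM at P3. Club and AT2-like cells read 563 CPM at P15, and AT2-like cells 45.7 CPM at P60, from 11 UMIs. Clusters with fibroblast markers read 51.7, 33.3 and 5.61 CPM by age, the last from 1 UMI. Whether age or the library lies behind the fall in AT1 cells was not tested. A UMI of Acot1 was found in 58.5% of AT1 cells at P3, 19.8% at P15 and 2.11% at P60, or in 24.2, 9.76 and 0.657% of cells thinned to 2000 UMIs. Its neighbour Acot2, the mitochondrial member of the same gene cluster on chromosome 12, read 73.4, 52.7 and 54.7 CPM, 1.34-fold lower at P60 than at P3 (1.20 to 1.51). At each AT1 age the level of Acot1 was below the 178 CPM of AT2 cells, by the most at P60.

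Abca3 was 1.91-fold higher (1.77 to 2.06) at P15 than at P3 and 1.22-fold lower (1.11 to 1.35) at P60 than at P15. The size of the first step depended on the setting, with log2 ratios between 0.56 and 1.15. Lpcat1 stayed within 1.14-fold between P3 and P60 (1.07 to 1.23), and its sign changed under some scalings. Fasn was 1.57-fold higher at P60 than at P3 (1.26 to 1.96), at levels under the filter.

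Small AT2-like clusters inside the AT1 gates gave the only view of AT2 transcripts at P3, and in these Scd1 was low beside the other AT2 genes. The P3 library held 65 such cells, led by Sftpc, Sftpa1, Lyz1 and Slc34a2, with a median of 16685 UMIs, above that of the library, and AT1 markers at 46.9% of the library's level. A UMI of Sftpc and of Slc34a2 was found in 100% of these cells and one of Scd1 in 76.9%. They read 191 CPM of Scd1 and 427 CPM of Scd2, a ratio of 0.448 (0.379 to 0.528). As a percent of the P60 AT2 library, Scd1 stood at 4.00% (3.48 to 4.58), while Slc34a2 stood at 42.8%, Abca3 at 53.4%, Lpcat1 at 51.5%, Fabp5 at 72.6% and Scd2 at 72.4%. Lamp3 at 22.6% and Fasn at 29.6% lay between, beside Sftpc at 57.6%, Sftpb at 49.2% and Sftpa1 at 27.6%. Acot1 was the gene that stood above the adult level, 447 CPM or 252% (227 to 278), and it read 340 CPM in the 142 club and ciliated-like cells of that library.

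The P60 library held 53 AT2-like cells in its AT1 gate, whose leading genes included the immune genes S100a8, S100a9, H2-Aa and Cd74 beside Sftpc and Sftpa1, at a median of 2973 UMIs and with AT1 markers at 13.8% of the library's level. A UMI of Slc34a2 was found in 24.5% of them, of Lamp3 in 20.8%, of Scd1 in 32.1% and of Sftpc in 56.6%, where 62.9% of the AT1 cells of that library had one of Sftpc, so a minority of the cells held the AT2 transcripts and the levels are means over a mixed cluster. They read 747 CPM of Scd1 and 457 CPM of Scd2, a ratio of 1.64 (1.28 to 2.09). Scd1 stood at 15.6% of the AT2 library's level (13.4 to 18.1), Sftpc at 30.5% and Slc34a2, Lamp3, Lpcat1 and Fabp5 at 26.0, 31.3, 30.9 and 32.5%. At P15 a cluster of 63 club and AT2-like cells read 323 CPM of Scd1 and 354 of Scd2, a ratio of 0.913 (0.731 to 1.14), and 563 CPM of Acot1. In that cluster too a minority of cells had a UMI of Scd1 (31.7%), Lamp3 (31.7%) and Slc34a2 (41.3%), and 57.1% one of Sftpc. There Scd1 stood at 6.77% of the adult level and Sftpc at 31.0%. Scd1 was thus below the share of Sftpc in each of the 3 clusters. At P60 the interval of Scd1 overlapped those of Fasn, at 19.9% (12.8 to 29.4), and Acot1, at 25.7% (12.8 to 46.1). That Acot1 value is 45.7 CPM from 11 UMIs. These cells passed a gate set for AT1 cells, and the part of their AT1 and immune transcripts in the result was not tested.

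**Figure D5:**
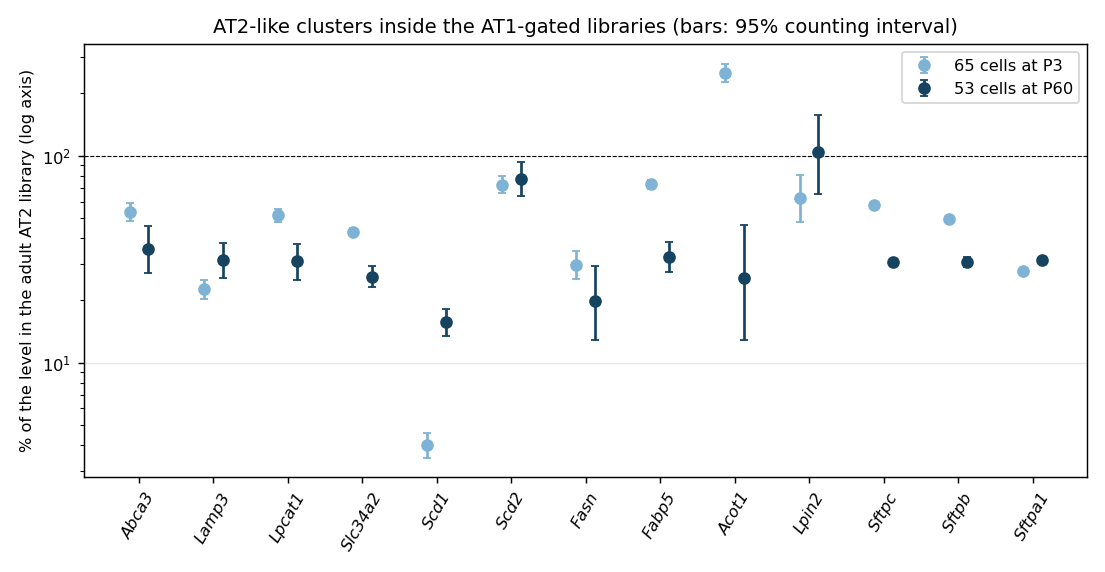
Levels of the 10 genes and 3 surfactant protein genes in the AT2-like clusters of the P3 (65 cells) and P60 (53 cells) AT1-gated libraries are plotted as a percent of their level in the P60 AT2 library, on a log axis with 95% counting intervals. Scd1 is the lowest point of both clusters, at 4.00 and 15.6% (at P60 with an interval that overlaps others), and Acot1 at P3 the highest, at 252%. The P60 points are means over a cluster in which 24.5% of cells had a UMI of Slc34a2.

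Outside the alveolar epithelium, Fabp5 was counted in immune-like cells, 1129 CPM in 14 cells at P3 and 374 CPM in 53 cells at P15, and at 200 CPM in the P15 cluster with fibroblast and pericyte markers, where Sftpc read 134, 4763 and 50.8 CPM. Scd2 read 191 CPM in those fibroblast-like cells, 440 CPM in the 42 endothelial-like cells at P15 and 320 CPM in 53 endothelial and fibroblast-like cells at P60, below every AT1 cluster of the same library.

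Lists of related genes that include the 10 were counted in the same way, with those 10 left out where stated. The counts are to be read against the 13.5% of all genes that were at least 2-fold higher and the 39.5% that were lower in AT2 than in AT1 cells. A gene under 50 CPM in 1 of the libraries passed the filter only through the other, where it is higher, as 353 of the 3452 genes did through AT2 cells and 1441 through AT1 cells. Of the lamellar body and surfactant list, 16 passed the filter in AT2 over AT1 at P60, 12 were at least 2-fold higher and 1, Prdx6, lower, at a median log2 ratio of 5.52 (all genes tested, -0.72). Without the 10 genes these were 8 and 1 of 12, with the surfactant protein genes Sftpa1 at 38107 against 51.9 CPM and Sftpd at 5852 against 8.94 CPM. Of the 8, Napsa, Ctsh, Sftpb, Sftpc, Sftpa1 and Sftpd are also AT2 markers by which clusters were named. Their direction is therefore no separate support. The others were Cd63, at 942 against 373 CPM, and Rab27a, at 66.0 against 0.154 CPM. Lamp1, Lamp2 and Stx3 read lower in AT2 cells by less than 2-fold. Of the 16 genes of the list that passed, 6 passed only through AT2 cells and 1 only through AT1 cells. In AT1 cells at P60, Sftpa1 and Sftpd stood at 0.136 and 0.153% of their AT2 level, near the 0.163% of Sftpc, and their differences between ages are not read. Of the list's other genes, the cathepsin gene Ctsh went from 1466 to 149 CPM, 9.81-fold lower (9.20 to 10.5), and Prdx6, a peroxiredoxin with phospholipase activity, from 2350 to 5663 CPM, 2.41-fold higher, at P60 against P3 in AT1 cells.

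Of the fatty acid synthesis and desaturation list, 9 of 15 were higher in AT2 cells and 3 lower (Fads3, Scd2 and Elovl5), at a median of 1.77, and without the 10 genes 7 and 2 of 12. Of the 15, 8 passed only through AT2 cells and 2 only through AT1 cells. Mid1ip1, an activator of acetyl-CoA carboxylase, read 682 against 15.4 CPM and the delta-5 desaturase gene Fads1 80.6 against 0.616 CPM, from 4 UMIs in AT1 cells. Over AT1 ages the list held other genes that were higher at P15 than at P3 as Scd2 was, the elongase gene Elovl5 from 120 to 388 CPM, 3.24-fold (3.10 to 3.40), and Fads3 from 207 to 527 CPM, 2.55-fold (2.46 to 2.65), while Mid1ip1 went from 65.9 to 17.0 CPM. In that comparison 3 of 7 that passed were higher and 1 lower, against 9.3% and 6.66% of all genes. Of the 7, 1 passed only through P3. In P60 over P3, 4 of 8 were higher (Scd2, Hacd3, Fads3 and Elovl5) and 1 lower (Mid1ip1) at a median of 1.02, against 0.12 for all genes. Of all genes, 13.3% were higher and 9.59% lower. Of the 8, 1 passed only through P60 and 1 only through P3.

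The 8 sterol synthesis and uptake genes that passed were all under 50 CPM in AT1 cells, so they passed only through AT2 cells and had to be higher there. At any level, 15 of the 16 listed read higher in AT2 than in AT1 cells and 1, Sc5d, lower, at 21.1 against 36.1 CPM, where 25.4% of 10493 genes with a UMI read higher in AT2 cells. Idi1, of isoprenoid synthesis, read 139 against 4.01 CPM, 34.7-fold (23.6 to 53.3). Of the regulators, 4 of 9 were higher (Cebpa, Insig1, Srebf1 and Srebf2) and 4 lower (Nr3c1, Thra, Nr1h2 and Cebpb), at a median of -0.50. The share lower is near that of all genes. Of the 9, 4 passed only through AT2 cells and had to be higher there. Another 4 passed only through AT1 cells and had to be lower in AT2 cells. Insig1, a sterol-regulated retention protein of SREBP, was 9.90-fold higher (8.17 to 12.1) at 169 CPM, and Cebpa rested on 2 UMIs in AT1 cells. In fatty acid uptake and activation, 4 of 5 were higher, 3 of them passing only through AT2 cells, and 0 lower. They were Fabp5, Cd36, a fatty acid translocase, at 831 against 7.40 CPM, 112-fold (84.7 to 153), Acsl4, an acyl-CoA synthetase, 17.4-fold (14.9 to 20.3), and Dbi, the acyl-CoA binding protein, 7.54-fold (7.10 to 8.02).

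The thioesterase list held a further AT2 gene, Acot7, at 663 against 4.93 CPM, 134-fold (95.1 to 197). Of its 5 genes that passed, 2 were higher and 1, Acot9, lower, against 13.5% and 39.5% of all genes. Of the 5, 2 passed only through AT2 cells and had to be higher there. Another 1 passed only through AT1 cells and had to be lower in AT2 cells. In AT1 cells from P3 to P60, Acot1 was the 1 of 4 that was lower, and it passed only through P3. Acot11, Them6 and Them4, all under the filter, went from 1.84 to 23.3, 6.43 to 36.7 and 9.27 to 35.0 CPM. Lpl, the lipoprotein lipase gene of the uptake list, shared the direction of Acot1, at 114, 29.8 and 5.55 CPM at P3, P15 and P60, 20.5-fold lower (14.7 to 29.3) over the span. Of the fatty acid oxidation genes, 4 of 16 were higher (Hadh, Echs1, Etfb and Eci1) and 1 lower (Hadhb) in AT2 over AT1 cells. Of the 16, 2 passed only through AT2 cells and 2 only through AT1 cells.

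Of 4 other ABC lipid transporters that passed, 3 were lower in AT2 cells (Abca5, Abca1 and Abca2) and 1 higher (Abcd3). In AT1 cells, 4 of 4 were higher at P60 than at P3, where 13.3% of all genes were. Of those 4, 2 passed only through P60 and had to be higher there. Abca5 read 78.6, 192 and 265 CPM in AT1 cells and 6.14 in AT2 cells, 43.1-fold lower (33.5 to 56.4), and the cholesterol and phospholipid exporter gene Abca1 31.9, 191 and 201 CPM and 8.49 CPM, 23.7-fold lower (19.1 to 29.8). These 2 were the opposite of Abca3 between the cell types, and the 3 lower genes passed only through AT1 cells. Of the phosphatidate, glyceride and lipid droplet list, 1 of 8 was higher in AT2 cells (the lipid droplet coat gene Plin2) and 3 lower, with the acyltransferase gene Agpat4 at 1.37 against 205 CPM, 150-fold lower (89.2 to 276), and Mgll, the monoglyceride lipase, at 48.7 against 134 CPM. The 3 of 8 are near the 39.5% of all genes. Of the 8, 1 passed only through AT2 cells and 2 only through AT1 cells. In P60 over P3, where 13.3% of all genes were, 3 of 8 were higher, Lpin2, Agpat4 and Mgll at 4.44, 3.36 and 4.46-fold. Of these 8, 2 passed only through P60 and had to be higher there.

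In phosphatidylcholine synthesis and remodelling, 2 of 7 were higher in AT2 cells and 2 lower, at a median of -0.59, near the -0.72 of all genes. Of the 7, 1 passed only through AT2 cells and 1 only through AT1 cells. Beside Lpcat1 the higher gene was Pla2g1b, a secreted phospholipase, at 688 against 4.78 CPM, 144-fold (101 to 212). The lower genes were Slc44a2, a choline transporter-like gene, at 47.0 against 575 CPM, and the cholinephosphotransferase gene Chpt1 at 66.3 against 308 CPM. In AT1 cells Slc44a2 was 2.64-fold higher (2.52 to 2.75) at P60 than at P3.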

How the data were processed

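Sorted mouse lung cells of 4 groups, 1 library each, were profiled with 10x 3' chemistry. The deposited values are natural log values per gene and cell, for which the authors scaled every cell to the same total of 10000 and added 1 before the logarithm, as the values show. Per the submitters' processing notes the tools were Cell Ranger 1.3.1 and Seurat 2.0.0 and the builds mm10 and hg19, where the part of hg19 is not given. Back on the linear scale, values were whole multiples of a cell's lowest value for 100% of entries, within 0.05, and the multiples were used as UMIs. Library totals were 26536894, 15401939, 7276458 and 10379705 UMIs (P3, P15, P60 AT1, P60 AT2). Genes listed at 0 in every cell of a file (9, 0, 0 and 1068) were left out of ratios there, a gene absent from a file was not taken as 0, and 0 columns of samples were left unused.

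Clusters were made per library with Scanpy 1.11.5 (2000 variable genes without the 10, 20 components, 15 neighbours, Leiden resolution 0.5) and clusters were named from marker lists. Cells with 3 endothelial, fibroblast, pericyte or smooth muscle or immune markers, 4 mesothelial, 5 ciliated or 6 club markers were set aside, 13, 33, 45 and 34 cells in the clusters of the sorted type. These thresholds and the cluster naming rules were set after the values were seen, and no doublet caller was run. No further cell was removed by UMIs or genes, except by thinning. UMIs were summed per library, with exact Poisson intervals for levels, exact conditional Poisson intervals for ratios and Clopper-Pearson intervals for shares, at 95%. Genes at 50 CPM and 30 UMIs in the higher library entered counts at a 2-fold threshold. The ratio and thinning steps were tested on simulated data.

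The 10 genes and all lists were chosen with earlier results of these data known. All 10 are named, with up to 4 genes per list and comparison (20 CPM and 2-fold, by size), and for Abca3, Scd1 and Scd2 the 5 genes of most like pattern. Some genes of the lists are not reported here. Neighbouring genes and genes that lead a cluster are named outside this rule. RefSeq windows were used for Slc34a2, Fasn, Acot1, Lpcat1, Lamp3, Abca3 and Lpin2. Scd1, Scd2 and Fabp5 had no entry in the table used.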

Additional observations from a re-analysis of the deposited data

How the results depend on the processing

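No paired analysis was possible because each group holds 1 library, and for the same reason no replicate could be left out. Of 25 ratios of the 10 genes that were 2-fold or more, 23 stayed so in each of 13 alternatives that apply to ratios, the exceptions being Lpin2 in AT2 over AT1 (log2 -0.80 with the median of gene ratios) and Slc34a2 in P60 over P15, which rests on 25 and 11 UMIs (log2 0.38 with all cells). Staying 2-fold does not mean a steady size: the AT2 over AT1 ratios of Slc34a2, Lamp3, Scd1 and Fabp5 moved by up to 11.4, 10.9, 8.75 and 7.95-fold. Of all 520 recomputed ratios 411 moved within counting error, 109 moved beyond it and 0 of the 2-fold ones changed sign. 31 of 40 ratios kept their sign in every alternative. The cause of a move was not tested unless the alternative's own construction shows it.

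The log2 ratio of Scd1 to Scd2 was -8.85, -11.10 and -9.30 in AT1 cells of the 3 ages in order and 3.02 in AT2 cells. With all cells of a library, AT2-like ones included, it was -5.76, -7.22 and -6.10 in the AT1 libraries. Thinning gave -8.22 at P3, -8.58 at P60 and 3.06 in AT2 cells, and leaving out AT1 cells with 3 or more AT2 markers gave -12.11 at P15. The thinned AT1 values rest on 3 to 12 Scd1 UMIs, and the -12.11 on 4. Leaving out the 1% of cells with the most UMIs of a gene removes all AT1 Scd1 UMIs at P3 and P15 by construction, so -11.91 and -13.04 there are limits set at 3 counts and not measured ratios, and at P60 9 UMIs were left, at -10.48. With the cells counted in the report the AT1 values rest on 12 to 26 Scd1 UMIs, so depth limits their size.

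Counts of genes at least 2-fold apart moved with scaling and filter. The main counts, higher and lower, were 306 and 219 (P15 over P3), 136 and 151 (P60 over P15), 460 and 332 (P60 over P3) and 466 and 1365 (AT2 over AT1). With the median of gene ratios 77 were higher in P60 over P15, 266 in P60 over P3 and 862 in AT2 over AT1, and 649 were lower in AT2 over AT1. With totals without ribosomal protein, mitochondrial and haemoglobin genes, 199 were higher and 337 lower in P15 over P3 and 519 lower in P60 over P3. Without Malat1 in the totals 246 were higher in P60 over P15 and 713 in P60 over P3. A minimum of 20 CPM gave 345 lower in P15 over P3, 276 higher and 230 lower in P60 over P15, 791 higher in P60 over P3 and 2404 lower in AT2 over AT1. No filter gave 1048 and 1405, 1370 and 493, 1928 and 949, and 1091 and 3827.

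Alternatives without platelet-led clusters and without clusters with more markers of another class were added after seeing the data. They kept every count within 1.5 times, and AT2 over AT1 gave 470 higher and 1362 lower, and 470 and 1368.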

Other observations

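Genes with a pattern like those of Abca3, Scd1 and Scd2 were found over the 31 clusters of at least 30 cells in the 4 libraries, among 6335 genes, by Pearson's r of log2(CPM + 10). Clusters of a library share its depth and its composition, so r is a description. The genes most like Abca3 were Rmdn2 (r = 0.95), Ang (0.94), Pon3 (0.93), Fgfr2 (0.93) and Srebf1 (0.92), of which Srebf1 encodes a transcription factor of fatty acid synthesis. Srebf1 read 18.6, 27.6 and 27.0 CPM in AT1 cells by age and 77.2 CPM in AT2 cells, and Fgfr2, a receptor for fibroblast growth factors, 27.6, 44.8, 55.9 and 221 CPM. As with Abca3, these levels were low but present in AT1 cells.

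The genes most like Scd1 were C6, Acoxl, Chil1, Hc and Tmem163, at r between 0.98 and 0.99, which AT1 cells held at 3.54 CPM or less. C6 and Hc encode complement components, at 165 and 422 CPM in AT2 cells. Of the 10 genes, Lamp3 was the closest to Scd1 (r = 0.99) and Scd2 was at -0.23.

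The genes most like Scd2 were Tpp1, a lysosomal peptidase gene (r = 0.91), the elongase gene Elovl5 (0.91), Slc22a23 (0.88), Slc39a13 (0.88) and the ubiquitin ligase gene Nedd4l (0.87), and of the 10 genes Lpin2 (0.88). Elovl5 read 120, 388 and 307 CPM in AT1 cells and 120 CPM in AT2 cells, with P3 and AT2 cells below P15 and P60, as for Scd2 and Lpin2.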
